A study of Mus musculus with 12 samples.

Results

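Removal of the stop cassette was examined by comparing the 3 nes-cre+/-Kmt2a+/LSL libraries with the 3 Kmt2a+/LSL libraries of a series of 12 mNPC libraries. These 6 libraries were taken by the genotype in their labels, without use of any measured value. The cells were neural progenitors cultured from the hippocampus of newborn (P0) C57BL/6J pups in medium with FGF-2 and EGF, and poly(A)-selected RNA was sequenced. In Kmt2a+/LSL, 1 *Kmt2a* allele carries a loxP-stop-loxP cassette in intron 1 that ends the transcript early, and the other allele is intact. In nes-cre+/-Kmt2a+/LSL, called restored here, a nestin-Cre transgene, active in cells of the nervous system from gestation on, can remove that cassette. The labels' titles call these groups Kmt2a KO and nestin cre Kmt2a KO. The other 6 libraries are Kmt2a+/+ and nes-cre+/-, with 3 libraries each, and serve here to show the level without the cassette and the difference between cultures with and without Cre when no cassette is present. Cre and cassette removal always go together between the 2 compared genotypes, so in that contrast alone they cannot be told apart.

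KMT2A is a histone methyltransferase that places methyl groups on lysine 4 of histone H3, a mark of active promoters and enhancers. It works in a complex with WDR5, RBBP5, ASH2L and DPY30, is brought to chromatin partly by a CXXC domain that binds unmethylated CpG-rich DNA, and is best known for keeping *Hox* genes active. In the brain it is needed for neurogenesis from stem cells that persist after birth, and loss of 1 human copy causes Wiedemann-Steiner syndrome.

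The deposited values are kallisto estimated counts per gene, and the 6 libraries held 20448957 to 26419144 counts in all. Normalized counts below are counts scaled by edgeR's TMM factors to a common library size. Restored libraries were less alike than Kmt2a+/LSL libraries. The median correlation of log2 counts with the other replicates, across genes of 1 library pair at a time, was 0.953, 0.963 and 0.958 in restored replicates 1, 2 and 3, and 0.977 to 0.978 in Kmt2a+/LSL. Restored replicate 1 had the lowest limma-voom quality weight, 0.361, against 1 to 1.35 in the other 5. The 4 Y-linked genes *Ddx3y*, *Eif2s3y*, *Kdm5d* and *Uty* had 313 to 1955 normalized counts in each Kmt2a+/LSL library and 379 to 2297 in restored replicates 1 and 2, but 0 to 22.8 in restored replicate 3. Markers of neural stem cells summed to 8014 to 10610 CPM (counts scaled to the same library total) in Kmt2a+/LSL and 7541 to 10430 in restored libraries, and all 12 of them had a mean of at least 50 normalized counts. Microglial markers summed to at most 2.62 CPM in any of the 6. The labels do not say whether replicates came from separate pups, so p-values cover the spread between these libraries only.

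**Figure D1:**
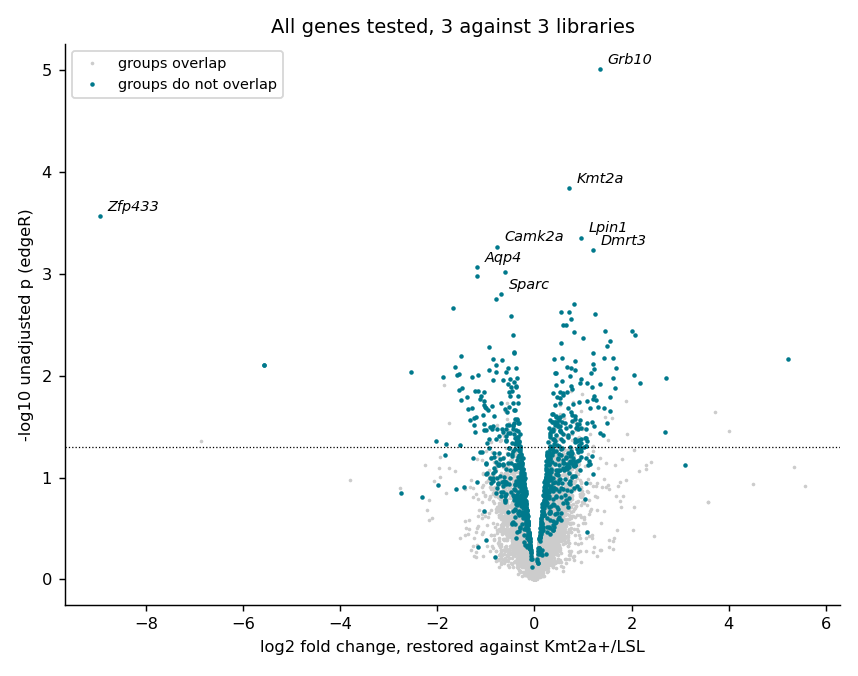
Log2 fold change of each tested gene between restored and Kmt2a+/LSL libraries (x axis) against −log10 of the unadjusted edgeR p (y axis), with the dotted line at 0.05. Teal points are the 439 higher and 469 lower genes whose groups do not overlap, and *Grb10* has the smallest p.

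Few genes separated the genotypes, and *Grb10* and *Kmt2a* stood first. In edgeR's quasi-likelihood test with Benjamini-Hochberg adjustment, 0 of 13677 genes (0%) had an adjusted p under 0.05. At an unadjusted p under 0.05, 191 genes were higher in restored libraries (1.4% of those tested) and 145 lower (1.06%), together 336 where 684 would be reached if no gene differed. DESeq2's Wald test on the same genes called 11 (0.0804%), of which *Grb10*, *Kmt2a*, *Lpin1*, *Dmrt3* and *Bckdhb* rose and *Zfp433*, *Aqp4*, *Camk2a*, *4933427D14Rik*, *Sparc* and *Csdc2* fell. limma-voom with sample weights called 0, with 447 genes at an unadjusted p under 0.05. Every restored library lay above every Kmt2a+/LSL library in 439 genes (3.21%) and below in 469 (3.43%). Together these were 6.64% of genes, where 10% would be reached if the libraries of both genotypes were interchangeable. Non-overlap of a gene is thus no sign of a difference by itself. The median log2 fold change over all tested genes was 0.00.

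*Kmt2a*, the gene that carries the cassette, checks the labels. It lies on the minus strand of chromosome 9 of GRCm38 from 44803355 to 44881296. Its normalized counts were 3922, 3925 and 3928 in Kmt2a+/LSL replicates 1 to 3, and 6498, 6732 and 6167 in restored replicates 1 to 3. The groups were far apart, with a 1.65-fold higher mean in restored libraries, and the 3 Kmt2a+/LSL values were almost equal. The log2 fold change was 0.72 (SE 0.11, edgeR adjusted p = 0.987, DESeq2 adjusted p = 1.50e-06), and the two-sided exact permutation test gave p = 0.1, the smallest that 3 libraries against 3 allow. Against a mean of 6928 ± 260 in Kmt2a+/+ (SD, n = 3), Kmt2a+/LSL stood at 56.7% and restored at 93.3%, and the ranges of restored and Kmt2a+/+ libraries overlapped. The gene's count pools the isoforms of both alleles, so it is not a count of full-length transcripts.

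*Grb10* encodes an adaptor protein that binds the insulin and IGF1 receptors and dampens their signal. It is an imprinted gene, expressed from the maternal copy in most tissues and from the paternal copy in neurons. It lies on the minus strand of chromosome 11 from 11930508 to 12038683. Normalized counts were 1858, 2021 and 1498 in Kmt2a+/LSL and 4591, 4189 and 4934 in restored libraries, so the lowest restored value was above the highest Kmt2a+/LSL value by a wide margin. The mean was 2.55-fold higher, with a log2 fold change of 1.35 (SE 0.15, edgeR adjusted p = 0.134, the smallest of all genes, DESeq2 adjusted p = 1.34e-12). Restored libraries averaged 4571 ± 373, Kmt2a+/+ 4462 ± 629 and nes-cre+/- 4821 ± 443 (SD, n = 3 each). These 3 genotypes overlapped one another, and Kmt2a+/LSL alone lay below.

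*Dmrt3*, a DM-domain transcription factor of the dorsal telencephalon, lies on chromosome 19 from 25610301 to 25623921. It had 170, 124 and 109 normalized counts in Kmt2a+/LSL, and 262, 326 and 345 in restored libraries. The groups did not overlap, and the mean of restored libraries was 2.32-fold higher (log2 fold change 1.21, SE 0.23, edgeR adjusted p = 0.9997, DESeq2 adjusted p = 0.0035). The 311 ± 43.5 of restored libraries compared with 311 ± 34.1 in Kmt2a+/+ and 321 ± 45.0 in nes-cre+/- (SD, n = 3 each). *Dmrt3* thus had the same order of levels as *Grb10*, with Kmt2a+/LSL alone below the rest.

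*Lpin1* and *Nek7* did not have that order. *Lpin1*, a phosphatidate phosphatase of lipid synthesis on chromosome 12 from 16535669 to 16610966, had 1373, 1472 and 993 normalized counts in Kmt2a+/LSL and 2329, 2860 and 2283 in restored libraries. It was 1.95-fold higher (log2 fold change 0.96, SE 0.17, edgeR adjusted p = 0.9997, DESeq2 adjusted p = 0.00217). Its means were 1579 ± 239 in Kmt2a+/+ and 2124 ± 427 in nes-cre+/- (SD, n = 3 each), so every restored library also lay above every Kmt2a+/+ library. *Nek7*, a kinase of mitosis and of the NLRP3 inflammasome on chromosome 1, had 409, 442 and 494 normalized counts in Kmt2a+/LSL and 915, 606 and 739 in restored libraries (log2 fold change 0.75, SE 0.18, edgeR adjusted p = 0.9997, DESeq2 adjusted p = 0.185). Its level was lowest in Kmt2a+/+, at 191 ± 13.8, and 578 ± 74.6 in nes-cre+/- (SD, n = 3 each). For *Nek7* the cultures with Cre were above those without Cre on both *Kmt2a* backgrounds.

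**Figure D2:**
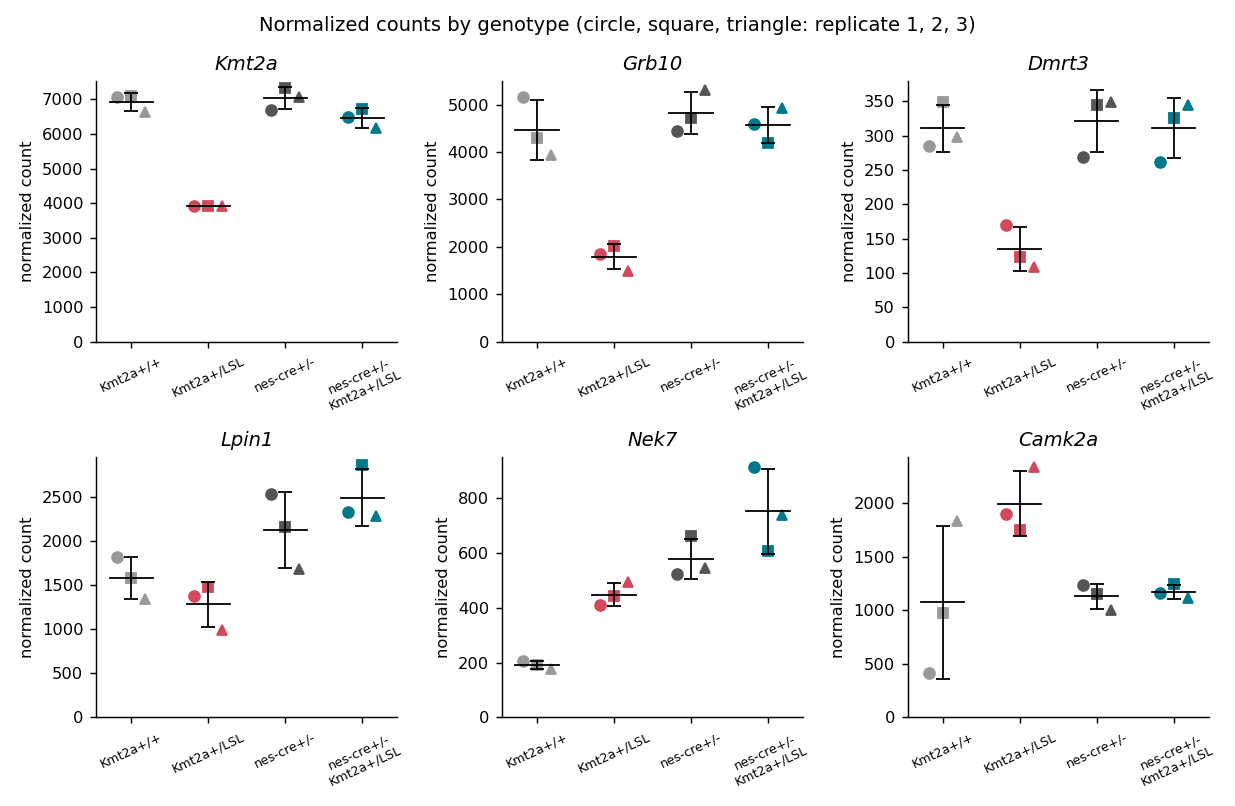
Normalized counts (y axis, from 0) of 6 genes in the 12 libraries by genotype, with the mean as a horizontal line and the SD as a bar (n = 3). *Kmt2a*, *Grb10* and *Dmrt3* were low in Kmt2a+/LSL alone, while *Nek7* was lowest in Kmt2a+/+ and highest in restored libraries.

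The RefSeq promoters of these genes (GRCm38.p6, 250 bases before to 50 after the start, 5′ to 3′ on the gene's strand) are shown because KMT2A's CXXC domain binds CpG-rich DNA. Each CG is in capitals, and a CG reads the same on both strands.
Kmt2a, minus strand, chr9:44881240-44881539: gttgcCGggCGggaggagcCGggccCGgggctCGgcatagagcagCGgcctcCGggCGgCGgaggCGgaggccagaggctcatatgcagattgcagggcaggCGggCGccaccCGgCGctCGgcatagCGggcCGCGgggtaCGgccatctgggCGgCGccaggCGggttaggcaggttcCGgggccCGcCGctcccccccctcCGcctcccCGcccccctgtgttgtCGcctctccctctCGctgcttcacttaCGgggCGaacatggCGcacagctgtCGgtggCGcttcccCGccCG
Grb10, minus strand, chr11:12037371-12037670: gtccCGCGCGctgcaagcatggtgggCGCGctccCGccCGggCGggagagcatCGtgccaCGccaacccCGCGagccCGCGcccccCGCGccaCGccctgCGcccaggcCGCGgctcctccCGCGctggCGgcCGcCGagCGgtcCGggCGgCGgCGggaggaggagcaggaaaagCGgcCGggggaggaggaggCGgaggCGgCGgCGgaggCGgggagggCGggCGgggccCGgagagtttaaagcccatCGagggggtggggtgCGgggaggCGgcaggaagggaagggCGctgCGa
Grb10, minus strand, chr11:12027922-12028221: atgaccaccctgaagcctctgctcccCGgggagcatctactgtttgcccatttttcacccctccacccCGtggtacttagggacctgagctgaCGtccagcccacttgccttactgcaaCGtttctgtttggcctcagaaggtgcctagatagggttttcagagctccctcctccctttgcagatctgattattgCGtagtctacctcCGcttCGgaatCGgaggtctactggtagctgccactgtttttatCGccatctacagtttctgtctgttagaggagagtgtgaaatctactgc
Dmrt3, plus strand, chr19:25610287-25610586: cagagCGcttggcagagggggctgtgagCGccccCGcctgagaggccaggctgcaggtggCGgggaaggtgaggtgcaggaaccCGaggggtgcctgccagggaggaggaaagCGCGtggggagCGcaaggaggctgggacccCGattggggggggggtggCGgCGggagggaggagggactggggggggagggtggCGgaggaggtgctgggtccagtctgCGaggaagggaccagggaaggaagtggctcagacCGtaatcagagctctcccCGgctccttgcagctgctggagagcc
The *Kmt2a* promoter holds 36 CGs, and 6.23% of the 32851 RefSeq promoters of that length hold as many or more. The upstream *Grb10* promoter holds 45, reached by 1.93% of promoters, and the downstream *Grb10* promoter holds 9, reached by 45.8%. The *Dmrt3* promoter holds 15, reached by 34.6%. *Lpin1*, with 2 CGs, and *Nek7*, with 23, lay on either side of *Dmrt3*. Among the 12 higher genes chosen for description, the 11 with a promoter in the table had a median of 17 CGs, and among the 12 lower genes the 7 with a sequence had a median of 18, against 22 over 10507 tested genes. The counts describe these windows only, and binding of KMT2A was not measured in these libraries.

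The 12 genes with the smallest p among the higher genes whose groups did not overlap, with a mean of at least 50 normalized counts, included *Grb10*, *Kmt2a*, *Lpin1*, *Dmrt3*, *Ndufc1*, *Slit2*, *Slc35f1*, *Stk32b*, *Nek7*, *Ptpro* and *Gstt1*. None of the 12 was called by edgeR, and 4 were called by DESeq2. *Slit2*, the secreted ligand of Robo receptors in axon guidance, had 348, 409 and 438 normalized counts in Kmt2a+/LSL and 568, 630 and 769 in restored libraries, a log2 fold change of 0.72 (SE 0.17). *Ptpro*, a receptor-type tyrosine phosphatase, had 1621, 1961 and 2075 against 2502, 3147 and 2817, a log2 fold change of 0.58 (SE 0.14). In both genes the gap between the groups was smaller than the spread of the restored libraries. The kinase gene *Stk32b* was at 25.4 to 35.5 in Kmt2a+/LSL and 60.5 to 80.7 in restored libraries. *Gstt1*, a glutathione transferase, and the transporter gene *Slc35f1* had log2 fold changes of 0.66 and 0.55. *Ndufc1*, a subunit of respiratory complex I, had 814, 788 and 817 normalized counts in Kmt2a+/LSL and 1592, 1028 and 1649 in restored libraries, so it was, among the 6 libraries, highest in restored replicates 1 and 3.

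The 12 lower genes chosen in the same way included *Camk2a*, *Aqp4*, *Csdc2*, *4933427D14Rik*, *Sparc*, *Cyp4f15*, *Tcirg1*, *Slc25a18*, *Coro2b*, *Lars2* and *Pde9a*. None was called by edgeR, and 5 were called by DESeq2. *Camk2a*, the alpha subunit of the calcium- and calmodulin-dependent kinase of synaptic plasticity, had 1899, 1748 and 2333 normalized counts in Kmt2a+/LSL and 1164, 1241 and 1114 in restored libraries (log2 fold change −0.76, SE 0.14, edgeR adjusted p = 0.9997, DESeq2 adjusted p = 0.00837). The restored libraries were close to one another and to the 1006 to 1238 of nes-cre+/-, but Kmt2a+/+ ranged from 418 to 1833 and overlapped both groups. *Aqp4*, the water channel of astrocyte end feet, had 1047, 994 and 572 against 428, 337 and 394, a log2 fold change of −1.17 (SE 0.24). *Aqp4* spread widely without the cassette, from 175 to 2500 in Kmt2a+/+ and from 331 to 2010 in nes-cre+/-.

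*Sparc*, a secreted matricellular protein and the most abundant of the 12, had 18110, 17070 and 14275 normalized counts in Kmt2a+/LSL and 10151, 9207 and 11524 in restored libraries (log2 fold change −0.68, SE 0.15, DESeq2 adjusted p = 0.0259). Its level of 10071 to 27182 in nes-cre+/- overlapped both groups. *Csdc2*, which encodes a cold-shock-domain RNA-binding protein, had 2387, 2797 and 2465 against 1562, 1601 and 1826, a log2 fold change of −0.62 (SE 0.13). *4933427D14Rik* had a log2 fold change of −1.18 (SE 0.24) and a value of −1.08 (SE 0.47) for Cre in cultures without the cassette. *Tcirg1*, a subunit of the vacuolar proton pump, differed by little but cleanly, with 1651, 1644 and 1749 against 1195, 1188 and 1243. Its 1385 to 1953 in nes-cre+/- lay above every restored library, and Kmt2a+/+ ranged from 348 to 1879. *Slc25a18*, a mitochondrial glutamate carrier, *Lars2*, the mitochondrial leucyl-tRNA synthetase, and *Coro2b*, an actin-binding coronin, had log2 fold changes of −0.45, −0.41 and −0.42. *Lars2* was at 1734 to 1808 in restored libraries and at 2115 to 2425 in nes-cre+/-. For *Slc25a18* and *Coro2b* the restored and nes-cre+/- libraries overlapped.

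*Zfp433* and *Bckdhb*, called by DESeq2, were outside the naming rule or its first 12, and are described, after their values were seen, because they were called. *Zfp433*, a zinc-finger gene on chromosome 10, had 18.6, 102 and 63.0 normalized counts in Kmt2a+/LSL and 0 in every restored library, at least 19.3-fold lower when 3 counts per library are taken as the floor. It was also at 0 in Kmt2a+/+ replicate 3, and 87.1% of its 31-base stretches are shared with other genes. *Bckdhb*, a subunit of branched-chain keto acid dehydrogenase, had 5.32, 6.72 and 15.2 in Kmt2a+/LSL and 792, 39.0 and 192 in restored libraries, and ranged from 0 to 202 in Kmt2a+/+ and from 0 to 308 in nes-cre+/-. Its log2 fold change of 5.23 (SE 1.28) was 3.66 (SE 0.75) without restored replicate 1.

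**Figure D3:**
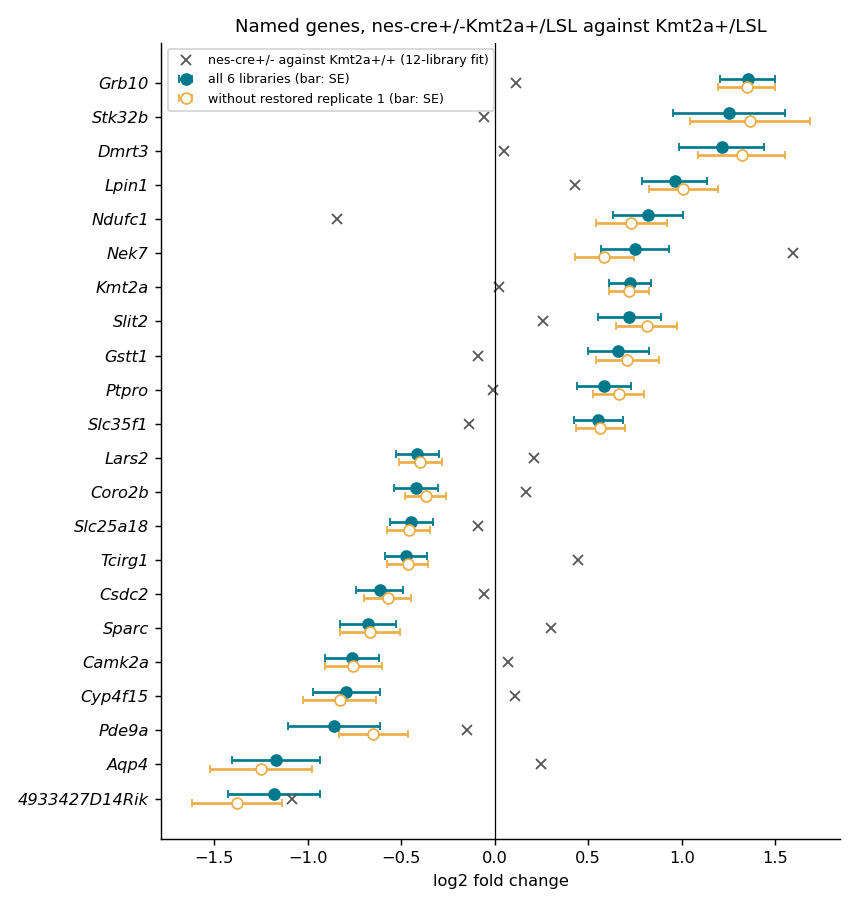
Log2 fold change (x axis) of 22 named genes between restored and Kmt2a+/LSL, with all 6 libraries (filled) and without restored replicate 1 (open), bars giving the SE. Crosses give nes-cre+/- against Kmt2a+/+ in the fit of 12 libraries. *Kmt2a* stands at 0.72 and *Grb10* at 1.35 with and without that library, while *Nek7* moves from 0.75 to 0.59.

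Leaving out restored replicate 1 moved the log2 fold changes of the leading genes by little, and DESeq2 called more genes. *Kmt2a* had a log2 fold change of 0.72 with and without it, *Grb10* 1.35 both times, *Dmrt3* 1.21 and 1.32, *Lpin1* 0.96 and 1.01, and *Nek7* 0.75 and 0.59. The direction of the 12 higher and 12 lower genes could not turn, since they were chosen for groups that do not overlap. With 2 restored libraries, edgeR tested 14036 genes and called 1 (0.00712%), with 594 at an unadjusted p under 0.05. The common biological coefficient of variation, which measures how far replicates of a genotype scatter, was 0.232 with all 6 libraries and 0.195 with 5. DESeq2 called 36 (0.256%), of which 17 rose and 19 fell, and the 11 genes called with 6 libraries were all among them, as were *Slit2*, *Ptpro* and *Tcirg1*. limma-voom called 1, *Uck2*. The 2 remaining restored libraries lay above all Kmt2a+/LSL libraries in 1379 genes (9.82%) and below in 1260 (8.98%), numbers that fewer libraries raise by themselves.

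The gene called by edgeR was *Slc22a17*, a receptor of the lipocalin-2 siderophore carrier. It had 16.8, 26.9 and 22.4 normalized counts in Kmt2a+/LSL and 11.9, 319 and 536 in restored replicates 1 to 3, so replicate 1 lay below all Kmt2a+/LSL libraries and the others far above. The log2 fold change was 4.28 (SE 0.32) and the edgeR adjusted p 0.0135 with 5 libraries, against 3.71 (SE 1.21) and 0.9997 with 6. It was not called with the replicate number as a block, where edgeR called 4 other genes. *Slc22a17* had 280 in nes-cre+/- replicate 1 and 152 in Kmt2a+/+ replicate 2, with at most 37.3 in the other libraries of those genotypes. Some of the other genes that DESeq2 called without replicate 1, named here after their values were seen, were high in replicate 1 and low in the other restored libraries. *Tmem131* had 3651 in replicate 1 and 3.55 and 0 in the others, and *Abhd4* had 3400, 1041 and 458. *Emid1*, with 192, 207 and 228 in Kmt2a+/LSL and 248, 419 and 375 in restored libraries, and *Vit*, with 92.2 to 141 against 157 to 388, lay above in all 3.

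Of the chromatin genes, *Kmt2a* alone was called by any of the 3 tools. In the list of 17 H3K4 methyltransferases and core subunits, 1 gene was higher at an unadjusted p under 0.05 (*Kmt2a* itself, 1.4% over all genes) and 1 lower (1.06% over all genes). The lower gene was *Dpy30*, at 13.9 ± 3.10 against 5.69 ± 1.99 normalized counts (SD, n = 3 each). Without restored replicate 1 its unadjusted edgeR p was 0.0855, and 0 genes of the list were lower at a p under 0.05. The list's median log2 fold change was −0.04, between −0.08 and −0.02 with each of the 6 libraries left out in turn. *Kmt2c*, a sister enzyme, had a log2 fold change of 0.19, with no overlap between the groups. The 11 H3K4 demethylases and CoREST subunits had a median of 0.06 (0.01 without restored replicate 1) and none with an unadjusted p under 0.05. Of 32 *Hox*, *Meis* and *Pbx* genes, 7 passed the filter on low counts, all 7 had a negative log2 fold change, their median was −0.07, and none had an unadjusted p under 0.05. The 7 were *Meis* and *Pbx* genes, and the most negative value was that of *Meis3* at −0.30 (unadjusted p = 0.212). Without restored replicate 1, 2 of the 7 were positive.

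Genes of dorsal telencephalon and hippocampal patterning were 4 higher and 0 lower without overlap among 24 tested, where 3.21% of all genes were higher and 3.43% lower in that way. The median log2 fold change was 0.07. It was 0.16 without restored replicate 1, 0.03 without restored replicate 3, with 13 of 25 genes positive, and 0.04 without Kmt2a+/LSL replicate 1. Between nes-cre+/- and Kmt2a+/+, where no cassette was present, the list had a median of 0.15. Besides *Dmrt3*, these included *Nfia*, a transcription factor of the switch to gliogenesis, with 4530, 5262 and 4756 normalized counts against 6638, 5444 and 7329, and *Lef1*, the Wnt effector needed for the hippocampus, with 27.2 ± 4.70 against 50.1 ± 13.9 (SD, n = 3 each). In insulin and IGF signaling, 3 of 19 genes tested were higher without overlap and 0 lower, against 3.21% and 3.43% of all genes. The median was 0.07, but −0.02 without restored replicate 2 and 0.02 without Kmt2a+/LSL replicate 2. It was 0.08 without restored replicate 1 and 0.12 without Kmt2a+/LSL replicate 3. The 3 were *Grb10*, *Irs1*, the receptor substrate, at 908 ± 54.0 against 1190 ± 206, and *Igf1r*, the receptor, at 2661 against 3049. For *Irs1*, 30.7% of the 31-base stretches are shared with other genes. Of 22 imprinted genes tested, 2 were higher without overlap, *Grb10* and *Mest*, against 3.21% of all genes. The median was 0.08, with 0.14 without restored replicate 1 and 0.01 without restored replicate 2, far below the 1.35 of *Grb10*.

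For genes of astrocyte differentiation the list medians of the libraries overlapped between the groups. Relative to the Kmt2a+/LSL mean, the list stood at −0.19, 0.29 and −0.16 in Kmt2a+/LSL and at −0.40, −0.22 and −0.02 in restored libraries, so restored replicate 3 lay above 2 Kmt2a+/LSL libraries. Of 19 astrocyte genes tested, 16 had a negative log2 fold change, the median was −0.22 against 0.00 for all genes, and 2, *Aqp4* and *Gfap*, were lower both without overlap (3.43% of all genes) and at an unadjusted p under 0.05 (1.06%). *Gfap*, the intermediate filament of astrocytes, had 3291, 4505 and 2313 normalized counts in Kmt2a+/LSL and 2089, 1245 and 1981 in restored libraries (log2 fold change −0.93, SE 0.27, edgeR adjusted p = 0.9997). The summed level of the list was 9536 to 14230 CPM in Kmt2a+/LSL and 8590 to 12170 in restored libraries, so as a sum the groups overlapped. The median was −0.11 without Kmt2a+/LSL replicate 2, −0.15 without restored replicate 1 and −0.31 without restored replicate 3. Fewer cells of a type and less RNA per cell cannot be told apart in such bulk libraries.

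Of 18 oligodendrocyte-lineage genes tested, 1 was higher and 3 lower without overlap, against 3.21% and 3.43% of all genes. *Sox10*, the lineage transcription factor, had 156, 196 and 116 normalized counts in Kmt2a+/LSL and 42.7, 75.4 and 107 in restored libraries, while *Nkx2-2*, an earlier factor of the lineage, had 277, 322 and 328 against 362, 493 and 481. The median was −0.10, and −0.01 without restored replicate 1, in which the list stood at −0.42 relative to the Kmt2a+/LSL mean. It was 0.04 without Kmt2a+/LSL replicate 2, −0.16 without Kmt2a+/LSL replicate 1, −0.18 without restored replicate 2 and −0.22 without restored replicate 3. Neural stem cell markers, with 19 tested, had a median of −0.06. Without overlap, 1 was higher (*Egfr*) and 1 lower (*Msi1*), close to the 3.21% and 3.43% of all genes. Without restored replicate 1 that median was 0.02, with 11 of 19 genes positive. Of 25 genes of neuronal differentiation, 17 were positive and the median was 0.13, with 0 genes at an unadjusted p under 0.05. Without overlap, 2 were higher and 1 lower, against 3.21% and 3.43% of all genes. Without restored replicate 1 the median was 0.20, and 2 of 26 genes were higher at an unadjusted p under 0.05, as were 372 of all 14036. Endothelial markers summed to 7.66 to 15.3 CPM in Kmt2a+/LSL and 5.46 to 7.80 in restored libraries, and markers of fibroblasts and mural cells to 7.40 to 8.29 and 8.66 to 10.3. Ependymal and choroid plexus markers were at 18.3 to 29.6 and 13.9 to 19.1 CPM. No marker of these types was at 0 in all 6 libraries, and their part in the results was not tested.

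With all 6 libraries, the medians of the proliferation and signaling lists lay between −0.11 and 0.07, and several moved when a library was left out. The 32 genes of DNA replication and mitosis had a median of −0.11, with none at an unadjusted p under 0.05. That value turned with single libraries. It was 0.19 without Kmt2a+/LSL replicate 1, in which the list stood 0.47 above its group mean, −0.25 without Kmt2a+/LSL replicate 2, −0.22 without restored replicate 1 and −0.01 without restored replicate 2. *Cdkn1b*, the cell-cycle inhibitor p27, was the only one of 20 CDK inhibitors and p53 targets that was higher without overlap, a share near the 3.21% of all genes, with 2150, 2137 and 2194 normalized counts against 3024, 2628 and 2903 (log2 fold change 0.40, SE 0.11). Of 33 Wnt pathway genes, 4 were higher and 1 lower without overlap, against 3.21% and 3.43% of all genes. The Wnt median was 0.06, and 0.23 without restored replicate 1, with 24 of 35 genes positive. It was 0.03 without restored replicate 3, with 18 of 33 positive, and 0.03 without Kmt2a+/LSL replicate 2. Of 21 Notch genes, 0 were higher and 1 lower without overlap, close to the 3.43% of all genes. The lower one was the receptor gene *Notch3*, with 5000, 5272 and 5062 against 2663, 3297 and 4276. At an unadjusted p under 0.05, 1 Notch gene was higher and 1 lower, against 1.4% and 1.06% of all genes. The Notch median of −0.11 became 0.01 without restored replicate 1. Of 15 genes of the lecticans and perineuronal matrix, 9 were positive and 6 negative, and 2 were higher without overlap, against 3.21% of all genes. Their median was 0.07, but −0.05 without Kmt2a+/LSL replicate 1, −0.04 without Kmt2a+/LSL replicate 3 and 0.19 without restored replicate 1. Of the 2, *Acan*, which encodes aggrecan, had 3.55, 2.88 and 6.10 normalized counts against 11.9, 19.5 and 19.5 (log2 fold change 2.01, SE 0.51), and *Adamts5*, a protease that cuts aggrecan, had 78.9, 96.9 and 91.4 against 128, 176 and 124. The medians of the hedgehog, EGF and FGF, BMP and TGF-beta, Eph, semaphorin, glutamate and GABA receptor, glycolysis, stress-response and interferon lists lay between −0.07 and 0.02 with all 6 libraries, and between −0.14 and 0.12 with each library left out in turn.

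Cholesterol synthesis and the immediate early genes had mostly negative values, which depended on single libraries. Of 23 cholesterol genes, 21 had a negative log2 fold change and 2 were lower without overlap (3.43% over all genes), with a median of −0.10. It became −0.01 without restored replicate 2, −0.22 without restored replicate 3 and −0.20 without Kmt2a+/LSL replicate 3. The list stood at 0.03, 0.08 and −0.12 in Kmt2a+/LSL and at −0.10, −0.30 and 0.06 in restored libraries, which overlapped. Its median between nes-cre+/- and Kmt2a+/+ was −0.09. Of 16 immediate early genes, 14 were negative, with a median of −0.37. *Arc*, a neuronal activity gene, was at 43.1 ± 11.3 against 21.4 ± 3.62 normalized counts (SD, n = 3 each). Without Kmt2a+/LSL replicate 3, in which the list stood 0.38 above its group mean, the median was −0.02. It was −0.59 without Kmt2a+/LSL replicate 2 and −0.43 without restored replicate 1.

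Genes of translation and respiration were higher in single restored libraries. Of 80 cytosolic ribosomal protein genes, 73 had a positive log2 fold change, 8 were higher and 1 (*Rpl10*) lower without overlap, against 3.21% and 3.43% of all genes, and the median was 0.29. Relative to the Kmt2a+/LSL mean, that list stood at −0.04 in restored replicate 1, −0.01 in replicate 2 and 0.72 in replicate 3, and without replicate 3 its median was −0.02. The 75 nuclear genes of the respiratory chain did the same, at −0.02, 0.07 and 0.53, with a median of 0.20 that became 0.00 without replicate 3. Without restored replicate 1 the ribosomal median was 0.43 and the nuclear respiratory median 0.31. The 13 mitochondrially encoded proteins stood at 0.81, −0.07 and −0.02, so their median of 0.33 came from restored replicate 1 and was 0.00 without it. These 3 lists were added after the values of restored libraries had been seen. Their genes are short, with median exon lengths of 1805, 1718 and 784 bases against 4529 over all tested genes. In the shortest of 5 length classes, genes stood at a median of 0.11 in restored replicate 3 and −0.12 in replicate 1, and in the longest class at −0.03 and 0.10. The part of transcript length and of sex in these differences was not tested.

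**Figure D4:**
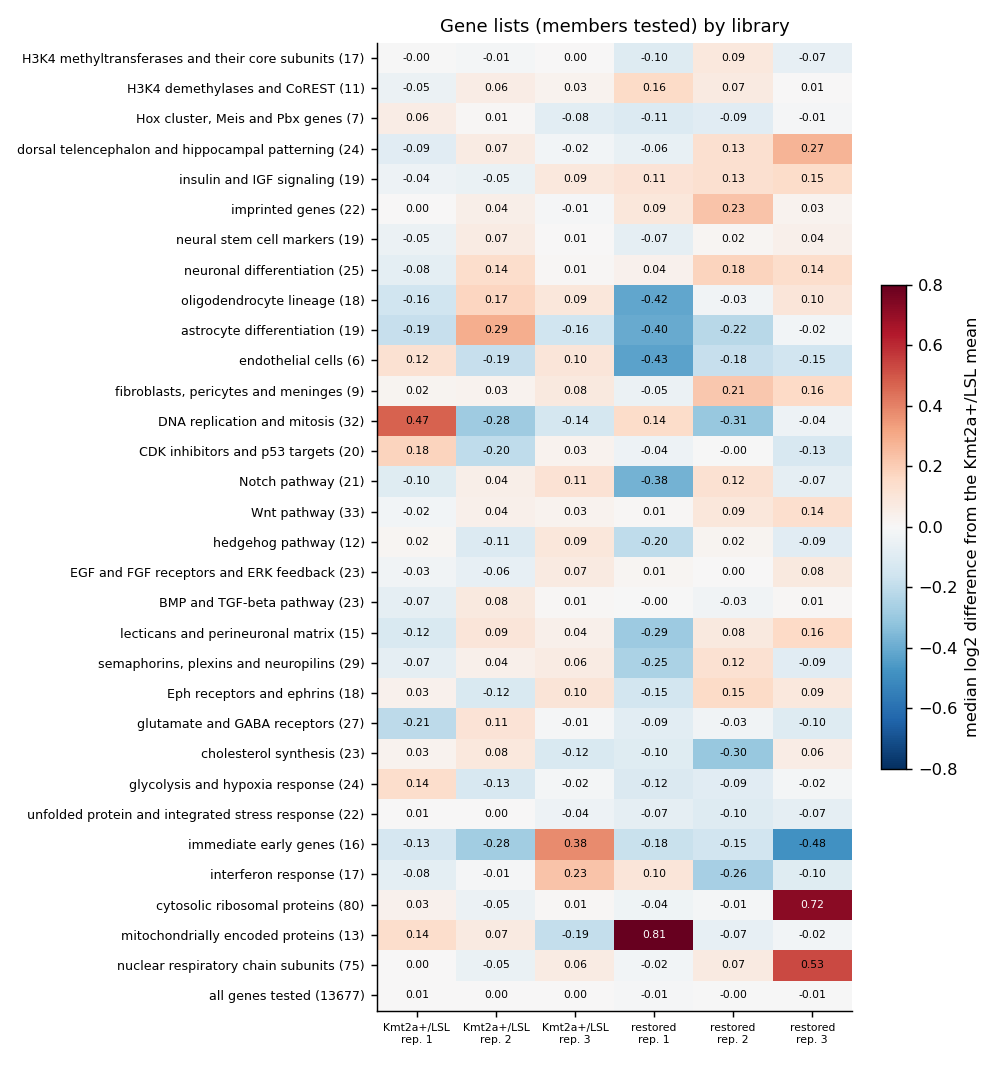
Median log2 difference from the Kmt2a+/LSL mean (colour and printed value) of each gene list with at least 5 tested members (rows, number tested in brackets) in the 6 libraries (columns). Ribosomal and nuclear respiratory genes stand out in restored replicate 3 at 0.72 and 0.53, and mitochondrially encoded genes in restored replicate 1 at 0.81.

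Nestin-Cre without the cassette was compared in the other 6 libraries, which share no library with the main contrast, in 1 fit of all 12 libraries. Between nes-cre+/- and Kmt2a+/+, edgeR called 0 of 14253 genes (0%), with 143 at an unadjusted p under 0.05. limma-voom called 0, with 1008 at an unadjusted p under 0.05, and DESeq2 called 3 (0.021%), which were *Brca2*, *Fbrs* and *Nek7*. *Kmt2a*, *Grb10* and *Dmrt3* had log2 fold changes of 0.02, 0.11 and 0.05 there, and their groups overlapped. *Nek7* had 1.60, with 205, 191 and 178 normalized counts in Kmt2a+/+ and 524, 663 and 547 in nes-cre+/-. Of the 12 higher named genes, *Nek7* was the only one whose nes-cre+/- and Kmt2a+/+ libraries did not overlap, and of the 12 lower ones there was none. The share of all genes without overlap was not tallied for this contrast. Wide ranges in Kmt2a+/+, such as 418 to 1833 for *Camk2a*, make overlap likely, so these counts do not show that Cre leaves a gene unchanged. The spread of this fit was larger, with a coefficient of variation of 0.355, and Kmt2a+/+ replicate 1 correlated with its mates at 0.840. The Y-linked genes were at 0 to 33.4 normalized counts in Kmt2a+/+ replicate 3 and in nes-cre+/- replicates 1 and 2, and at 287 to 2646 in the other 3 libraries of this contrast, and the part of this imbalance in the contrast and in the difference of the contrasts was not tested. Without Kmt2a+/+ replicate 1, edgeR again called 0, with 989 genes at an unadjusted p under 0.05.

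The difference between the 2 contrasts, restored minus Kmt2a+/LSL against nes-cre+/- minus Kmt2a+/+, was tested in the same fit. edgeR called 0 of 14253 genes (0%), with 187 at an unadjusted p under 0.05. limma-voom called 0, with 814 at an unadjusted p under 0.05, and DESeq2 called 9 (0.0631%), with *Grb10*, *Kmt2a* and *Zfp433* among them. The difference was 1.24 (log2, SE 0.24) for *Grb10* and 0.70 (SE 0.17) for *Kmt2a*, with an edgeR adjusted p of 0.9999 in each. *Acan* had the difference 3.11 (log2, unadjusted p = 0.000714, edgeR adjusted p = 0.9999), to which both contrasts added. It was higher in restored than in Kmt2a+/LSL libraries. Where no cassette was present it was lower with Cre, at 15.5 ± 3.35 normalized counts in Kmt2a+/+ and 7.09 ± 3.04 in nes-cre+/- (SD, n = 3 each). Its counts were low in every genotype. For *Nek7* the difference was −0.85 (unadjusted p = 0.00988).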

How the data were processed

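Poly(A) RNA of 12 mNPC cultures was sequenced, and the authors quantified reads with kallisto 0.48.0, so the deposited table gives unnormalized estimated counts. The study tested them with DESeq2 1.42.0 and an empirical null. The table holds 18911 genes, 18718 of them matched to a symbol. Here the estimated counts were rounded and tested with edgeR 4.0.16 (R 4.3.3; TMM, filterByExpr with a minimum count of 10, robust quasi-likelihood test, Benjamini-Hochberg adjusted p under 0.05) on the 6 libraries compared. The difference between contrasts used all 12. DESeq2 1.42.0 and limma 3.58.1 (voom with sample weights) were alternatives. Library totals were 18280008 to 28596919, and 3 counts, taken as the floor, equal 0.114 to 0.147 CPM in the 6 libraries. These floors cover counting error only.

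Named genes were *Kmt2a*, *Grb10*, *Dmrt3* and *Nek7*, and the 12 genes per direction of smallest p among those whose groups did not overlap and whose mean was at least 50, since none was called; from each list described, at most the 4 members of smallest p; and genes called without restored replicate 1. Others named are said to be so or were outside this rule because their groups did not overlap. Members and lists were chosen with earlier results of these data known, and the ribosomal, mitochondrial and respiratory lists after seeing these values. Shared 31-base stretches were counted between transcripts of different genes. Some genes that met the rule are not reported here. No replicate pair matched within sampling noise. On simulated data with 200 of 13677 genes changed 3-fold, for the 6-library comparison, edgeR recovered 78% with 11 false calls in 167, and DESeq2 85% with 34 in 204. Recovery of smaller changes, such as the 2.55-fold of *Grb10* and the 1.65-fold of *Kmt2a*, was not simulated.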

Additional observations from a re-analysis of the deposited data

How the results depend on the processing

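For restored against Kmt2a+/LSL, the count of 0 called genes became 11 with DESeq2, 1 (*Grb10*) with no filter on low counts, and 0 to 3 when each library was left out in turn. It became 151 (89 higher, 62 lower) with an empirical null, fitted here to the smallest 75% of absolute DESeq2 statistics. The study used fdrtool and its own filter on low counts, so this null resembles its procedure but is not the same. Without restored replicate 1, the count of 1 became 36 with DESeq2, 3 with no filter, 83 (45 higher, 38 lower) with the empirical null, and 0 with at least 50 counts in every library, with Kmt2a+/+ added (9 libraries, also with the study's filter and no robust prior) and with 12 libraries. Leaving out a further library gave 0 to 110, the 110 coming without restored replicate 2, which leaves 1 restored library assumed to vary like the others. The log2 fold change of *Kmt2a* was 0.73 and called with DESeq2 (adjusted p = 1.50e-06) and with the empirical null (1.93e-15), and 0.69 to 0.75 with a library left out. For nes-cre+/- against Kmt2a+/+, the count of 0 became 3 with DESeq2 and 1 at an adjusted p under 0.1. For the difference of contrasts it became 9 with DESeq2. The alternatives were run for *Slc22a17* and the 24 genes named for the main contrast, whose direction with a library left out is fixed by their choice. Other list members were not refitted under every alternative. The cause of these changes was not tested. List medians without each library, and non-overlap without restored replicate 1, were added after seeing the data.

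With the replicate number as a block, edgeR called 0 genes with 6 libraries (313 at an unadjusted p under 0.05) and 4 without restored replicate 1 (*Daam1*, *Rps12l1*, *Socs7* and *Tmem131*), where *Slc22a17* was no longer called. The block left the *Kmt2a* value at 0.72. Deviations of same-numbered libraries correlated at −0.09 to 0.15, so the numbers were not shown to pair the samples. With 3 libraries a group, exact permutation cannot go below p = 0.1.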
